A study of Mus musculus with 8 samples.

Results

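The proteasome genes examined here are the mouse genes whose symbols begin with Psm, a letter from a to g and a number, as the platform annotation gives them to probe sets with exactly 1 symbol. They were 47 of the 17097 genes with a single-gene probe set, and each gene was represented by the brightest of its probe sets over all arrays (74 probe sets in all). Psmb8, Psmb9, Psmb10, Psme1 and Psme2 were set apart as induced members, which left 42 others. The name alone brought in Psmc3ip, a recombination factor, and Psme3ip1, an interaction partner of an activator, neither of which is a proteasome subunit. Psmc6, Psmd10, Psme2b and Psme4 were not analysed here.

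Gene expression was measured in total RNA on 8 Affymetrix mouse arrays of acute myeloid leukaemia (AML) cell lines, 4 with the label Trib1 hi and 4 with the label Trib1 null. By the labels both groups express Hoxa9, a leukaemia-driving homeobox gene, and the Trib1 hi group expresses Trib1 in addition. All the leukaemia cells came from mice with both copies of Trib1 knocked out, and all were grown untreated with fetal bovine serum and the cytokine IL-3. The comparison asks how expression differs with and without Trib1, a pseudokinase that together with the ubiquitin ligase COP1 sends the transcription factor C/EBP alpha to the proteasome. The labels name neither separate cultures or animals for the arrays of a group nor how many lines or clones stand behind it, so p-values reflect only how far these samples scatter, which may be technical scatter. Effects of Trib1 and differences between the lines cannot be told apart.

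The proteasome degrades proteins tagged with ubiquitin. Its core particle, called 20S, is a barrel of alpha subunits (Psma genes) around beta subunits (Psmb genes) that hold the catalytic sites. Its regulatory particle, called 19S, recognises, unfolds and feeds in the substrate with a ring of ATPases (Psmc genes) and a set of subunits without ATPase activity (Psmd genes). In immune cells, and in other cells under interferon, Psmb8, Psmb9 and Psmb10 take the places of the constitutive catalytic subunits Psmb5, Psmb6 and Psmb7, which gives the immunoproteasome and changes the peptides made for display on MHC class I. Psme1 and Psme2 form PA28, an activator ring that caps the core in place of the regulatory particle.

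The genes of all 3 pairs of exchanged subunits changed unequally between the groups. Psmb7, the counterpart of Psmb10, had no promoter in the reference used. The promoters of the other 2 pairs are shown. They are RefSeq windows of build GRCm38.p6, from 250 bases before to 50 bases after the gene start, 5′ to 3′ on the gene's strand, and come from the reference mouse, not from these lines. Capitals mark matches on either strand to 4 short motifs: TGACNNNGC, the core of the antioxidant response element that NRF1 and NRF2 bind, the CCAAT box bound by NF-Y, the interferon-stimulated response element core, and TTCNNNGAA, the core bound by STAT factors. Psmb8 lies at chr17:34197945-34198244 (plus strand), Psmb5 at chr14:54617946-54618245 (minus strand), Psmb9 at chr17:34187281-34187580 (minus strand) and Psmb6 at chr11:70525107-70525406 (plus strand).
Psmb8: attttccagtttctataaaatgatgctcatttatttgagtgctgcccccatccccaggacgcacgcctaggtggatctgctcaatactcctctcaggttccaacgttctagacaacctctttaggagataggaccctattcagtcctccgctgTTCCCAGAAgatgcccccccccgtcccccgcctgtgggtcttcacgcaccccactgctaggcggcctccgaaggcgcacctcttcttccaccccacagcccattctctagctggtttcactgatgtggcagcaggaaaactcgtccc
Psmb5: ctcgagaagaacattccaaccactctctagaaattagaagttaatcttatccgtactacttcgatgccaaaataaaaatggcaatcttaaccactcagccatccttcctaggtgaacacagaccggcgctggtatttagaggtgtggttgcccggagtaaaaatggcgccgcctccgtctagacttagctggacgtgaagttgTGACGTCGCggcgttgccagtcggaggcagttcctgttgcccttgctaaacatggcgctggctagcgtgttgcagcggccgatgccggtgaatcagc
Psmb9: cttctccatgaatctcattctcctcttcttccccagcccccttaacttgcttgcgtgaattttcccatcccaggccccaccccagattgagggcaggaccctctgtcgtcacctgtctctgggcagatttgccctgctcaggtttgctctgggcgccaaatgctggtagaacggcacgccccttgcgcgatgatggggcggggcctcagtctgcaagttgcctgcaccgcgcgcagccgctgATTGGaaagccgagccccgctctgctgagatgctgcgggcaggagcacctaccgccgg
Psmb6: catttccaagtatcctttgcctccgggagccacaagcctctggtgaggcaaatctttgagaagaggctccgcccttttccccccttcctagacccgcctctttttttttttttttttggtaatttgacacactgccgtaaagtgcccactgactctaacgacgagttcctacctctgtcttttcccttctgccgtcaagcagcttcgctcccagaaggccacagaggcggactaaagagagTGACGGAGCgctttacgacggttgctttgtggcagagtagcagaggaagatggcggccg
The constitutive subunits Psmb5 and Psmb6 each held 1 match to TGACNNNGC, beginning 47 and 9 bases before the start, and the induced subunits held none. Psmb8 held 1 match to TTCNNNGAA, beginning 97 bases before the start, and Psmb9 held a CCAAT box read on the other strand, beginning 8 bases before it. Over all 32851 promoter windows of this length, 12.4% held TGACNNNGC, 37.4% CCAAT, 3.44% the interferon-stimulated core and 8.30% TTCNNNGAA. Of the 42 windows that matched 38 of the tested proteasome genes, 4 held TGACNNNGC (9.52%), 14 CCAAT (33.3%), 5 the interferon-stimulated core (11.9%) and 3 TTCNNNGAA (7.14%). The 4 windows with TGACNNNGC belonged to Psmb5, Psmb6, Psmd9 and Psmd12, and the 5 with the interferon-stimulated core to Psmb3, Psmd4, Psmd9, Psme1 and Psmg4. A match is a description of letters, and its absence says only that these letters are not in the window.

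Signals are the deposited linear MAS5 intensities, and a difference is the fitted one between the group means of log2(intensity + 2.71), the group labelled Trib1 hi minus the group labelled Trib1 null. A gene is called higher or lower where limma's adjusted p over 12250 tested genes is under 0.05. Of the 47 proteasome genes 45 were tested, and 44 read at 500 or more on all 8 arrays. Psma8 and Psmb11, core subunits restricted to testis and thymus, read 15.2 or less on every array and fell under the filter on low values. Psmc3ip read 310.4 to 759 and its fitted difference was 0.21 ± 0.29 (SE, adjusted p = 0.687), and it passed as higher only after quantile normalization (adjusted p = 1.36e-05) among 16 alternatives (up to 0.892).

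The arrays were checked before the members were compared. The 2 Trib1 probe sets read under 500 on all arrays. The brighter read 5.92 to 122 in the group labelled Trib1 hi and 206 to 304 in the other, the reverse of the order in the labels. The dimmer overlapped, at 2.57 to 28.0 against 2.93 to 16.7. Whether such low signals measure the labelled difference in Trib1 was not tested. Hoxa9, which both groups should express, read 10.0 to 391 against 969 to 1075. Each direction below is therefore that of the labels. All 8 listed myeloid markers read over 500 on average, with 1 higher and 4 lower, and summed to 56993 to 81069 in the group labelled Trib1 hi and 74012 to 89234 in the other. Mpo, a granule peroxidase, was at least 10.3-fold higher, and Itgam, an integrin of mature myeloid cells, was 3.08-fold lower, so myeloid markers moved with the groups, and their part in the results was not tested. Listed markers of T and B lymphocytes (132 or less), dendritic cells (142 or less) and erythroid cells (391.9 or less) read low on every array, and none passed in limma. Of 5 markers of fibroblasts and endothelium, Pecam1, which myeloid cells also express, was the only one over 500 and was 1.39-fold lower.

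Arrays within a group differed too. Array Trib1 hi 3 was the lowest of its group for 40 of the 44 brighter proteasome genes, and Trib1 null 1 for 30. The 1124 genes with a mean signal over 5000 also lay lower on these arrays, by a median of -0.34 and -0.18 on the log2 scale relative to each gene's mean over 8 arrays. Over all tested genes above 500 the medians were -0.08 and -0.01. The median signal of all probe sets was 68.3 on Trib1 hi 3 and 3.71 to 9.56 on the others. Results are therefore also given without Trib1 hi 3 and after quantile normalization, which gives every array the same distribution. Leaving that array out moved the median difference of all tested genes from 0.04 to -0.32, but that of tested genes over 500 from -0.03 to 0.00.

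Most proteasome genes that changed were higher in the arrays labelled Trib1 hi, and the immunoproteasome subunits were lower. Of the 45 tested genes, 15 were higher and 5 lower, against 11.1% higher and 19.7% lower among all genes tested, and 24.2% and 31.1% of the 5326 tested genes with a mean signal over 500. None of the 15 was an induced member, and 3 of the 5 lower genes were. The 40 tested members outside the induced set had a median difference of 0.21 and the 5 induced members one of -0.46, beside -0.03 for all tested genes over a mean signal of 500. Groups did not overlap for 14 genes that read higher and 5 that read lower, against 21.9% and 30.6% of genes over 500 (13.5% and 15.8% of all tested).

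All 20 calls were also made without Trib1 hi 3 and after quantile normalization. Without that array the count of higher genes rose to 29 and that of lower genes to 6, beside 35.5% and 36.5% of genes over 500. After quantile normalization 26 were higher and 13 lower, beside 38.8% and 39.7%. The plot of differences by role shows all 5 induced members to the left of 0, and among the regulatory particle and assembly factors all but Psmd2 and Psmd5 to the right.

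**Figure D1:**
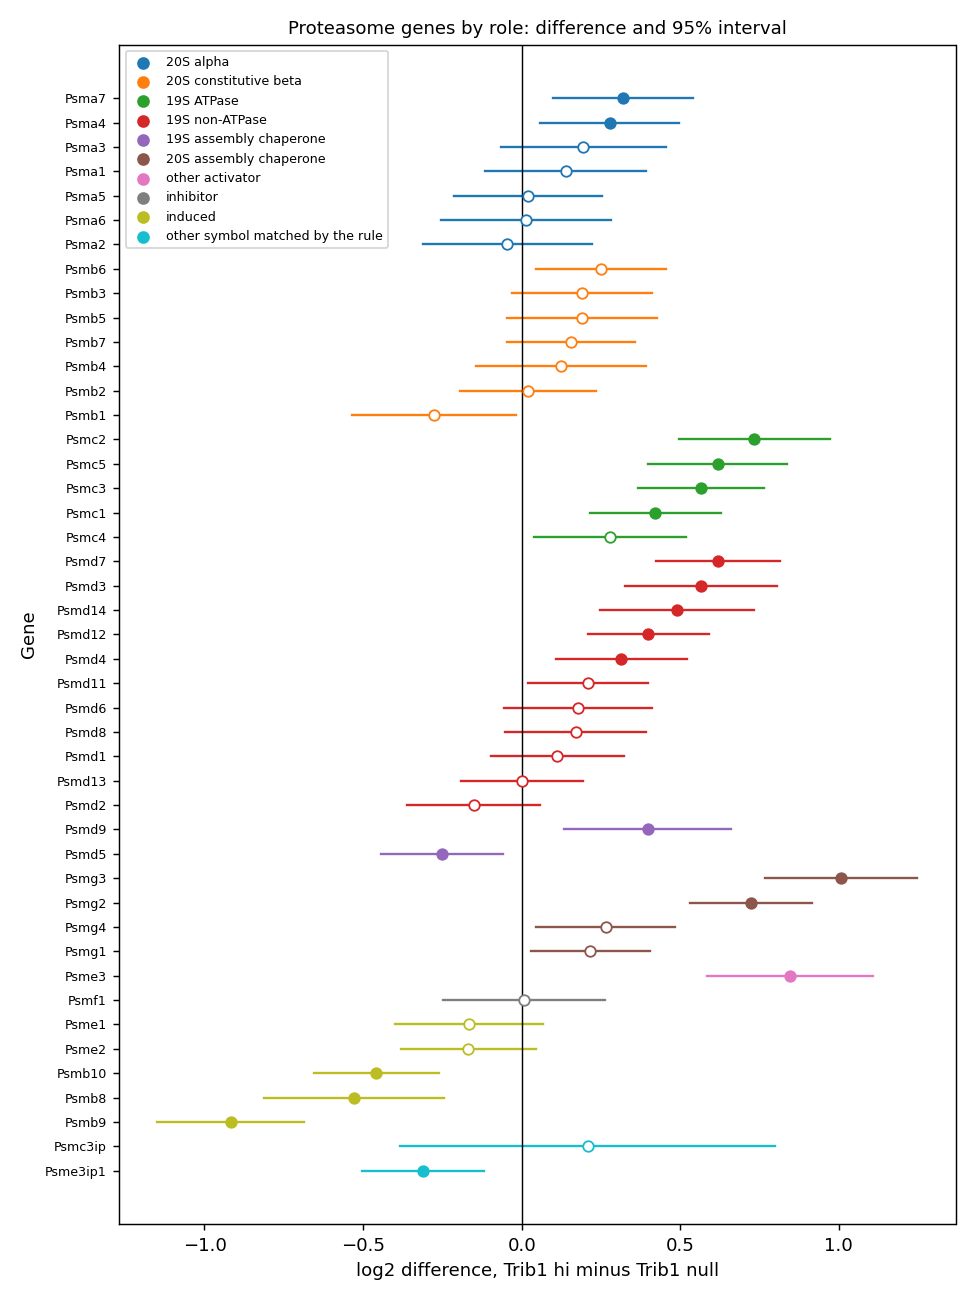
Fitted log2 difference (horizontal axis, arrays labelled Trib1 hi minus Trib1 null) of the 45 tested genes, grouped by role; lines are 95% intervals over 4 arrays per group, and filled points passed the adjusted p of 0.05. Psmg3 lies farthest to the right at 1.01 and Psmb9 farthest to the left at -0.92.

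The 3 induced catalytic subunits fell. Psmb9, which replaces Psmb6, had signals of 6812, 6501, 4719 and 6267 with the label Trib1 hi, against 10729, 11658, 11565 and 11528 with the label Trib1 null. Every array labelled Trib1 hi lay below every array labelled Trib1 null. The means were 6075 ± 931 and 11369.8 ± 431 (SD, n = 4 each), 1.89-fold lower (difference -0.92 ± 0.11, SE, adjusted p = 6.94e-08). A further probe set of the gene gave the same direction without overlap, at 1189, 1081, 1335 and 1267 against 3007, 3285, 3089 and 3058, a difference of -1.35. The call ended when the gene's 3 probe sets were averaged (adjusted p = 0.117, range over alternatives 3.39e-14 to 0.117); the last of the 3 read 43.1 or less on every array.

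Psmb8, which replaces Psmb5, read 14122, 13839.9, 9809 and 13609 in the group labelled Trib1 hi and 16405, 19557, 19106 and 18458 in the other. Array Trib1 hi 3 lay far below its group, and the groups did not overlap with or without it. The fall was 1.44-fold (means 12845 ± 2035 and 18382 ± 1393, difference -0.53 ± 0.14, adjusted p = 0.00317). It missed the threshold without a mean-variance trend (adjusted p = 0.0548, range over alternatives 2.95e-12 to 0.0548).

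Psmb10, which replaces Psmb7, read 4105, 4078, 3224 and 3824 against 5017, 5620.5, 5248 and 4967. The groups again did not overlap. The fall was 1.37-fold (means 3808 ± 409 and 5213 ± 298, difference -0.46 ± 0.10, adjusted p = 0.000303), and it passed in all 16 alternatives run.

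The constitutive counterparts did not move with them. Psmb5, the chymotrypsin-like subunit, read 10429, 10092, 7493 and 9881 against 7504, 9072, 8425 and 8012 (difference 0.19 ± 0.12, adjusted p = 0.254). Psmb6, the caspase-like subunit, read 6579.6, 6517, 5013 and 6466 against 4837, 5261, 5254 and 5177 (difference 0.25 ± 0.10, adjusted p = 0.0566). Psmb7, the trypsin-like subunit, read 2047, 2006, 1803 and 2284 against 1698, 1932, 1853 and 1806 (difference 0.16 ± 0.10, adjusted p = 0.290). In each case 3 arrays labelled Trib1 hi lay above all arrays labelled Trib1 null and Trib1 hi 3 lay among them or below. All 3 genes passed as higher without Trib1 hi 3 (adjusted p = 0.00564, 0.000253 and 0.0263 for Psmb5, Psmb6 and Psmb7) and after quantile normalization (0.00103, 0.000494 and 0.0178). Over all alternatives the adjusted p ranged from 0.00103 to 0.528, 0.000253 to 0.224 and 0.0178 to 0.588.

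**Figure D2:**
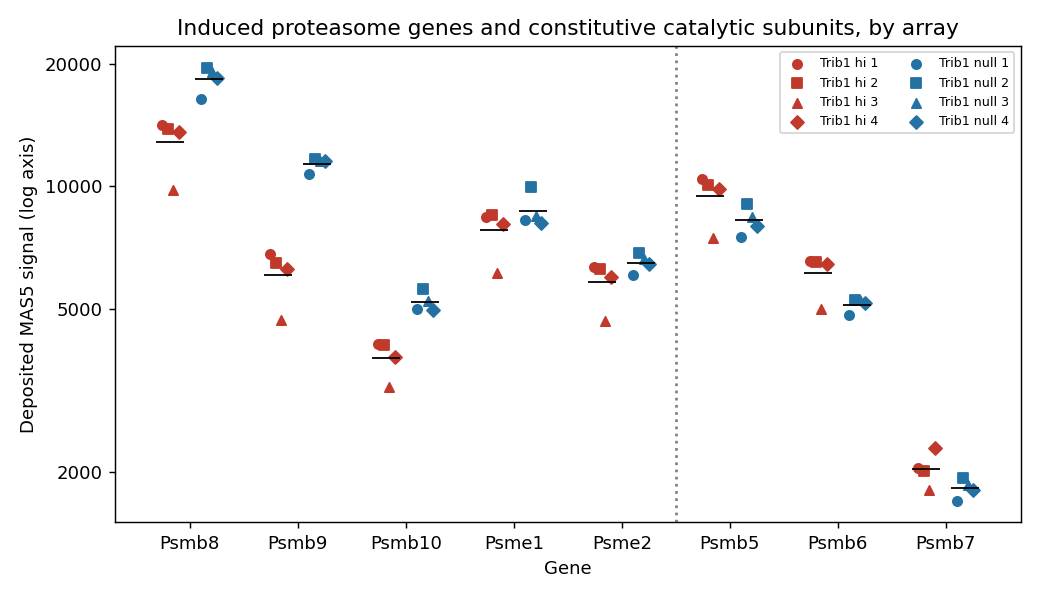
Deposited MAS5 signal (vertical log axis) of the 5 induced genes and, right of the dotted line, the 3 constitutive catalytic subunits on each of the 8 arrays; symbols mark the replicate number and black lines the mean of 4 arrays. Psmb8, Psmb9 and Psmb10 separate without overlap, and array Trib1 hi 3 (triangle) is the lowest of its group for every gene shown.

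Because both genes of a pair are read on the same array, their difference within an array is free of any single scaling factor of that array. Psmb8 minus Psmb5 on the log2 scale was 0.44, 0.46, 0.39 and 0.46 with the label Trib1 hi, against 1.13, 1.11, 1.18 and 1.20 with the label Trib1 null. The group means differed by -0.72, so that Psmb8 fell 1.65-fold relative to Psmb5. Psmb9 minus Psmb6 differed by -1.17 (group means -0.02 ± 0.06 and 1.15 ± 0.01), a 2.25-fold relative fall. Psmb10 minus Psmb7 differed by -0.61 (group means 0.90 ± 0.13 and 1.51 ± 0.05), a 1.53-fold relative fall. For each of the 3 pairs the groups did not overlap, and the two-sided exact permutation test over the 70 divisions of the arrays gave p = 0.0286, the smallest it can give (0.0286 adjusted over the 3 pairs). With averaged probe sets Psmb9 minus Psmb6 differed by -0.79 and no longer passed (exact permutation p = 0.143). Array Trib1 hi 3 gave 0.39, -0.09 and 0.84 in the 3 differences, close to the rest of its group. These differences show unequal change of the genes of a pair and not the ratio of their transcripts.

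**Figure D3:**
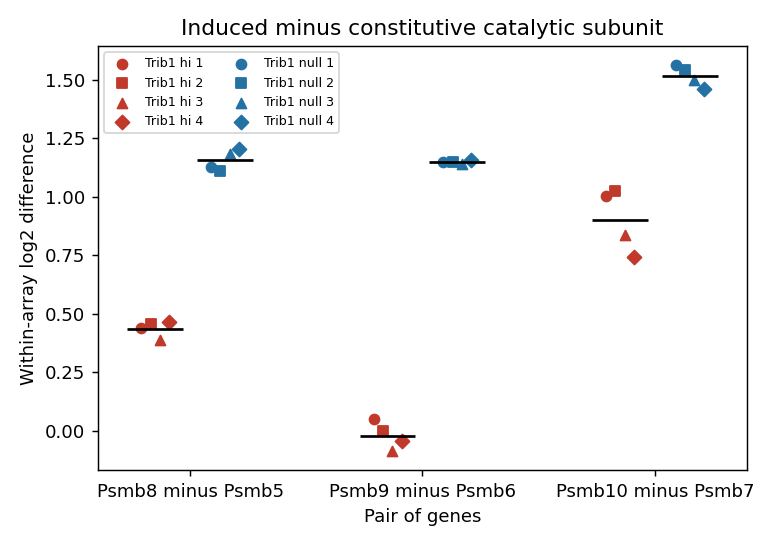
Within-array log2 difference (vertical axis) between each induced catalytic subunit and the constitutive subunit it replaces, on each of the 8 arrays; symbols mark the replicate number and black lines the mean of 4 arrays. In all 3 pairs the arrays labelled Trib1 hi lie below those labelled Trib1 null, with means of -0.02 and 1.15 for Psmb9 minus Psmb6.

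The PA28 activator genes did not pass the test. Psme1, its alpha subunit, read 8421, 8535, 6152 and 8091 against 8256, 9967, 8487 and 8144 (difference -0.17, 95% interval -0.40 to 0.07, adjusted p = 0.337). Psme2, its beta subunit, read 6350.1, 6266, 4687 and 6013 against 6077, 6885, 6624 and 6449 (difference -0.17, 95% interval -0.38 to 0.04, adjusted p = 0.269). The groups overlapped for both. Quantile normalization called both lower (adjusted p = 5.54e-05 and 1.54e-07; ranges over alternatives 5.54e-05 to 0.674 and 1.54e-07 to 0.484). Psme2 has a near-identical copy, Psme2b, which a probe set may not separate from it.

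Psmb8 and Psmb9 are neighbours in the MHC region of chromosome 17, with Tap1 between them and Tap2 beyond Psmb8, and the core subunit Psmb1 lies on the same chromosome. Of the 633 tested genes of chromosome 17, 44.9% were lower and 2.84% higher, and of the 300 with a mean signal over 500, 73.0% were lower with the label Trib1 hi and 5.67% higher, with a median difference of -0.60. The falls of Psmb8 (-0.53) and Psmb9 (-0.92) stand beside these shares, and the part of the chromosome in them was not tested. Psmb10 lies on chromosome 8, for which no such shares were counted. Psmb1 read 13311, 12697, 9836 and 12218 against 13274, 15223, 14956 and 14506 (difference -0.28 ± 0.13, adjusted p = 0.102). It was the only constitutive beta subunit with a fitted difference below 0, and it passed as lower after quantile normalization (adjusted p = 3.25e-07), with equal 90th percentiles and without Trib1 hi 3 (range over alternatives 3.25e-07 to 0.274).

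The rest of the core particle differed little. Of the 7 alpha subunits, Psma7 (1.25-fold, adjusted p = 0.0224) and Psma4 (1.21-fold, adjusted p = 0.0496) were higher and 5 did not pass. The 2 of 7 called higher lie near the 24.2% of genes over 500, of which 31.1% were lower. Differences ran from -0.05 to 0.32 over the 7, with a median of 0.14. Groups overlapped for all 7. The Psma4 call ended without any array except Trib1 hi 3, and the Psma7 call without Trib1 hi 1, Trib1 hi 2 or Trib1 null 1 (highest adjusted p over alternatives 0.196 and 0.173). Of the 7 constitutive beta subunits, 0 passed in limma, with 2 (Psmb1 and Psmb6) at an unadjusted p under 0.05, differences from -0.28 to 0.25 and a median of 0.16. Without Trib1 hi 3 the counts were 4 of 7 alpha subunits higher, and 5 of 7 beta subunits higher with 1 lower. In that setting 35.5% of genes over 500 were higher and 36.5% lower. After quantile normalization 3 alpha subunits were higher and 3 lower, and 4 beta subunits were higher and 2 lower, beside 38.8% and 39.7%. Calls in the core therefore did not keep a common direction across scalings. After quantile normalization the median differences were 0.08 for the alpha and 0.06 for the beta subunits, beside -0.002 for genes over 500.

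Several genes of the regulatory particle were higher, and no subunit of it was called lower. Of the 5 ATPase subunits measured, 4 rose and 0 fell, beside 24.2% higher and 31.1% lower of genes over 500. Their median difference was 0.57. Psmc2 (ATPase RPT1) read 13215, 12868, 9152 and 12261 against 6795, 7471, 7159 and 6857, 1.66-fold higher (means 11874 ± 1857 and 7071 ± 311, difference 0.73 ± 0.12, adjusted p = 6.17e-06). Even the low array Trib1 hi 3 lay above all arrays labelled Trib1 null. Psmc5 (ATPase RPT6) read 4526, 4109.6, 2901 and 3863 against 2459, 2611, 2583 and 2260.2, 1.54-fold higher (difference 0.62 ± 0.11, adjusted p = 2.38e-05). Psmc3 rose 1.48-fold and Psmc1 1.34-fold, also without overlap. Psmc4 read 1.21-fold higher and missed the threshold (adjusted p = 0.0740), while its other bright probe set differed by 0.50. All 5 ATPases passed without Trib1 hi 3, after quantile normalization and with equal 90th percentiles. In those settings 35.5%, 38.8% and 26.7% of genes over 500 were higher. Psmc1 lost its call when probe sets were averaged (adjusted p = 0.736) or without a mean-variance trend, and its adjusted p ranged over alternatives from 2.29e-07 to 0.736.

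Of the 11 subunits of the regulatory particle without ATPase activity, 5 rose and 0 fell, with a median difference of 0.21. Among genes over 500, 24.2% rose and 31.1% fell. Psmd7, a partner of the deubiquitinase in the lid, read 3388, 3671, 2838 and 3171 against 2164, 2250.3, 2089.6 and 1973, 1.54-fold higher without overlap (difference 0.62 ± 0.10, adjusted p = 3.95e-06). That call ended when dim probe sets were averaged in (adjusted p = 0.696, range over alternatives 1.57e-12 to 0.696). Psmd3, a lid subunit, rose 1.48-fold (adjusted p = 0.000280), Psmd14, the deubiquitinase that frees ubiquitin from substrates, 1.40-fold (adjusted p = 0.00152), and Psmd12, a lid subunit, 1.32-fold (adjusted p = 0.000984). The last 2 missed the threshold without a mean-variance trend (adjusted p = 0.0653 and 0.0502, ranges over alternatives 8.45e-10 to 0.0653 and 1.27e-06 to 0.0502). Psmd4, a ubiquitin receptor, rose 1.24-fold with overlap (adjusted p = 0.0163), and its direction turned with averaged probe sets (-0.54). The call also ended without Trib1 hi 1, Trib1 hi 2 or Trib1 null 1, without a filter, with a floor of 500 and without a mean-variance trend (adjusted p over the alternatives from 6.58e-06 to 0.252).

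The 6 others did not pass and ran from -0.15 for Psmd2, a scaffold subunit of the base, to 0.21 for Psmd11. The difference of Psmd13 was 0.00 with a 95% interval of -0.19 to 0.19. Without Trib1 hi 3, 9 of the 11 were higher and 0 lower, beside 35.5% and 36.5% of genes over 500. After quantile normalization 6 were higher and Psmd2 was lower, beside 38.8% and 39.7%.

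**Figure D4:**
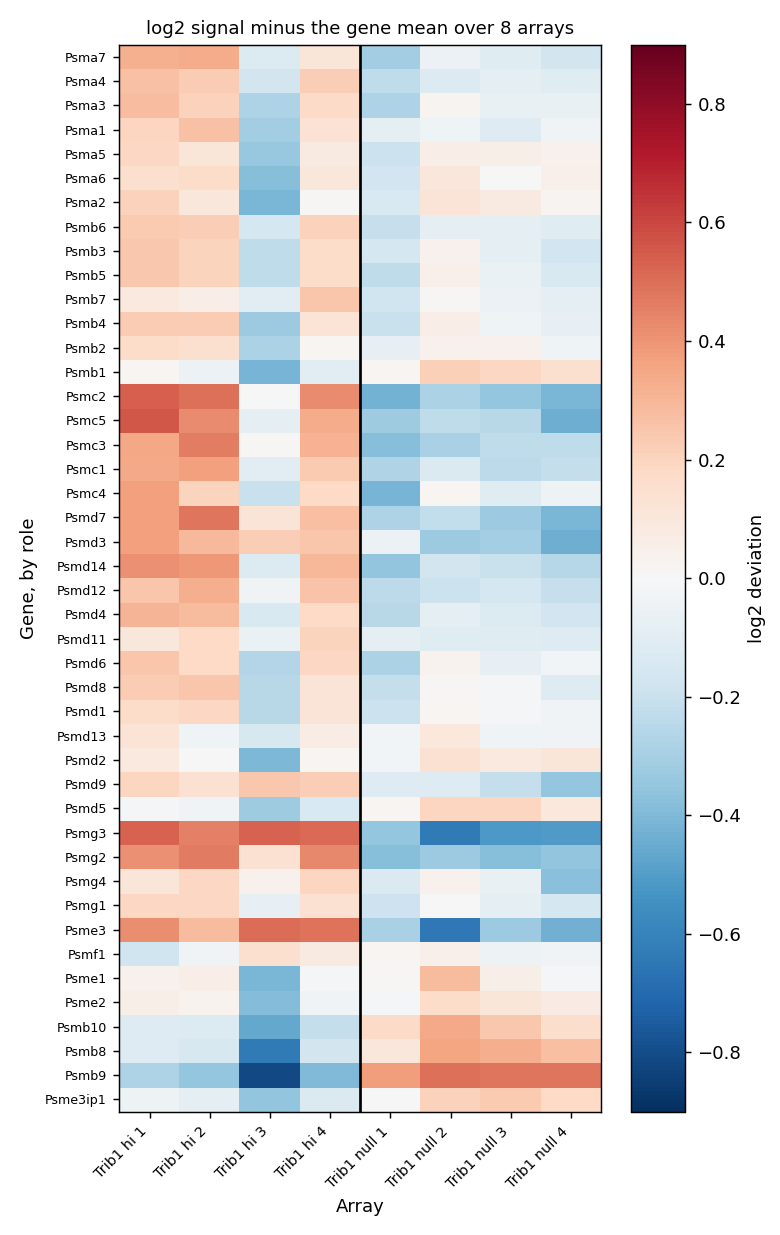
Log2 signal of the 44 genes over a mean of 500 on each array minus the gene's mean over 8 arrays (colour scale), with genes ordered by role from the core alpha subunits at the top to the induced members near the bottom. Psmc2, Psmg3, Psmg2 and Psme3 are higher in each of the 4 columns labelled Trib1 hi than in any labelled Trib1 null, Psmb9 is lower there, and the column of Trib1 hi 3 is the lowest of its group for 40 of 44 genes.

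Factors that build the proteasome included the largest increase. Psmg3, a chaperone of alpha ring assembly, read 1613, 1531, 1614 and 1594 against 877, 718, 783 and 784. It was 2.01-fold higher (means 1588 ± 39.3 and 790.4 ± 65.3, difference 1.01 ± 0.12, adjusted p = 2.60e-08), and the gap between the groups was far wider than the spread within either. Psmg2, the partner of Psmg1 in the same process, read 3502, 3649, 2896 and 3550.4 against 2020.0, 2098, 2024 and 2055, 1.65-fold higher (difference 0.72 ± 0.09, adjusted p = 1.76e-07). Its other bright probe set differed by 0.82. Psmg1 and Psmg4 read 1.16-fold and 1.20-fold higher and missed the threshold (adjusted p = 0.0764 and 0.0590); both passed without Trib1 hi 3, after quantile normalization and with equal 90th percentiles.

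The chaperones of the regulatory particle divided. Psmd9 read 1088, 1041, 1123 and 1108 against 876, 874, 819 and 745, 1.32-fold higher (adjusted p = 0.0174). Psmd5 read 3114, 3066, 2504 and 2845 against 3175, 3583, 3579.6 and 3347, 1.19-fold lower (adjusted p = 0.0405). The groups did not overlap for either gene, but the highest array labelled Trib1 hi and the lowest labelled Trib1 null lay close for Psmd5. Without Trib1 hi 4, Trib1 null 3 or Trib1 null 4, and with averaged probe sets, the Psmd9 call was lost (adjusted p over the alternatives from 8.84e-06 to 0.872). The Psmd5 call ended in 9 of 16 alternatives, among them those without Trib1 hi 4, Trib1 null 2, Trib1 null 3 or Trib1 null 4 (adjusted p over the alternatives from 3.47e-06 to 0.186).

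Of the activator genes, Psme3 alone passed the test. Psme3, which encodes PA28 gamma, the nuclear relative of the induced ring, read 1362, 1239, 1446 and 1431 against 834, 653, 811 and 753. It was 1.80-fold higher without overlap (means 1369.6 ± 94.5 and 763 ± 80.5, difference 0.85 ± 0.13, adjusted p = 2.74e-06), a call that ended with averaged probe sets (adjusted p = 0.528, against as little as 1.08e-09 in other alternatives); its other probe set read 256 or less. Psme3ip1 read 3329.7, 3242, 2688 and 3142 against 3449.8, 3977, 4046 and 3891, 1.24-fold lower without overlap (adjusted p = 0.0107, 0.116 without a mean-variance trend, range over alternatives 3.65e-07 to 0.116). Psmf1, the inhibitor PI31, read 897 to 1123 against 987 to 1049 (difference 0.01, 95% interval -0.25 to 0.26, adjusted p = 0.978), and quantile normalization called it higher (adjusted p = 0.0105, range over alternatives 0.0105 to 1).

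**Figure D5:**
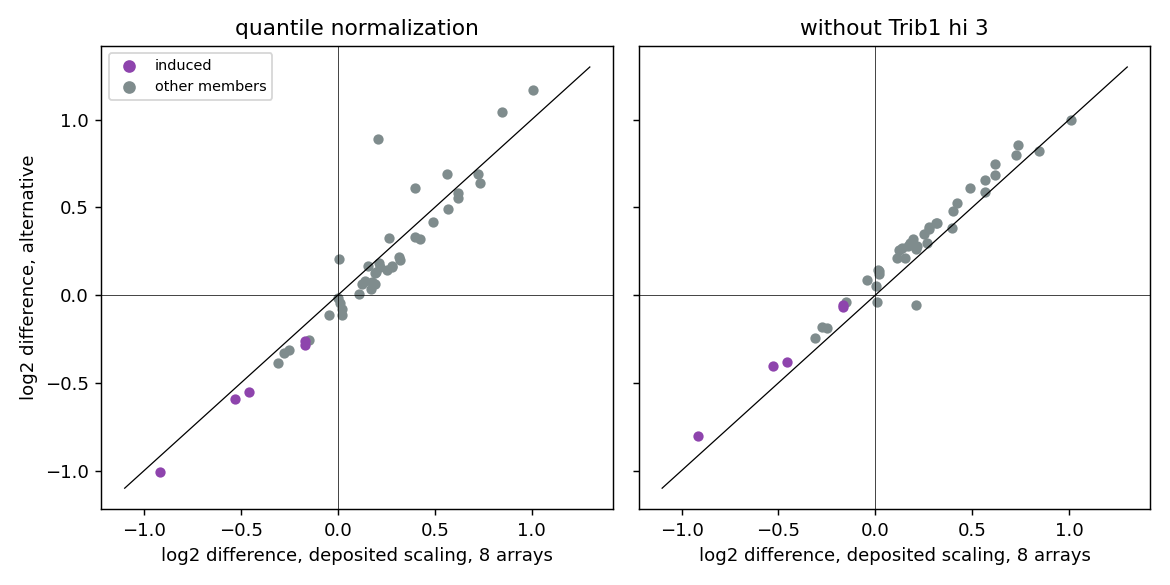
Log2 difference of each of the 45 tested genes with the deposited scaling and 8 arrays (horizontal axes) against the same after quantile normalization (left) and without array Trib1 hi 3 (right); the diagonal marks equal values and purple points are the 5 induced genes. Most genes lie above the diagonal on the right, and the point at 0.21 that rises to 0.89 on the left is the dim gene Psmc3ip.

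The 8 genes with more than 1 probe set at 500 or more on every array had the same direction in each of their bright probe sets. They were Psma7, Psmb3, Psmb9, Psmc4, Psmd11, Psmd4, Psmd6 and Psmg2. Of the 20 calls, 7 passed in all 16 alternatives (Psmb10, Psmc2, Psmc3, Psmc5, Psmd3, Psmg2 and Psmg3) and 15 passed without each array in turn.

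Of 10 tested regulators of proteasome genes, which are transcription factors and the NRF1-processing enzyme Ngly1, 3 rose and 4 fell, with a median difference of -0.25. Among all tested genes over 500, 24.2% rose and 31.1% fell, with a median of -0.03, so these small counts lie near the background. Nfe2l1, which encodes NRF1, the factor that raises proteasome genes when the proteasome is impaired, read 2004, 1853, 1738 and 2045 against 739.9, 461, 526 and 516. It was at least 3.39-fold higher without overlap (adjusted p = 3.24e-12, 0.000852 or smaller in every alternative run). A bound written "at least" sets signals below 500 to 500. Nfyb, a subunit of NF-Y, rose 1.46-fold (adjusted p = 0.000182), and Nfya, another subunit whose gene is on chromosome 17, was at least 1.38-fold lower (adjusted p = 0.000727, range over alternatives 2.97e-07 to 0.550). Nfe2l2, which encodes NRF2 and was picked with its values known, fell 1.33-fold (adjusted p = 0.000676).

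Among 15 tested proteasome-associated factors and ubiquitin shuttles, 3 rose and 1 fell, with a median difference of 0.05, which is no larger a share of increases than the 24.2% of genes over 500. Both deubiquitinases that bind the regulatory particle rose. Usp14 read 3484, 3555, 2854 and 3419 against 1948, 1891, 1815 and 1992, 1.74-fold higher (adjusted p = 3.44e-08). Uchl5 read 7152, 6742, 4782 and 5981 against 3596, 4297, 3887 and 3858, 1.56-fold higher (adjusted p = 1.32e-05, lost at 0.281 by averaging its probe sets, lowest over the alternatives 1.24e-11). Ubqln1, a ubiquitin shuttle picked with its values known, read 1.22-fold higher with overlap (adjusted p = 0.0277, up to 0.715 over the alternatives). Ubqln4, a related shuttle, read 305 ± 165 against 505 ± 82.2, near the limit of 500, and passed narrowly as lower (adjusted p = 0.0489), a call lost in 13 of 16 alternatives (0.00688 to 0.855). Pomp, which matures the core particle and was picked with its values known, read 5878 ± 835 against 6217 ± 288 (adjusted p = 0.600), and passed as lower after quantile normalization (adjusted p = 4.26e-06, up to 0.988 in other alternatives). Of the list of ubiquitin and E1 genes, 1 was on the table as a single-gene probe set (Uba6), at 48.6 or less, and it was not tested.

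Genes that act with the immunoproteasome were lower or did not pass. Of 7 tested genes of peptide loading and MHC class I, 0 rose and 3 fell, with a median difference of -0.55, beside 31.1% lower of genes over 500, and all 3 are on chromosome 17. Tapbp, the tapasin that holds MHC class I at the peptide transporter, read 6337, 6933, 4739 and 6435 against 11962, 13734, 12137 and 13213, 2.11-fold lower (adjusted p = 5.36e-09). H2-K1 and H2-D1, the class I heavy chains, fell 1.51-fold and 1.46-fold (adjusted p = 0.0107 and 0.0133, ranges over alternatives 5.64e-12 to 0.151 and 1.27e-12 to 0.271). Calr and Canx, class I chaperones on other chromosomes, named after their values were seen, did not pass (adjusted p = 0.150 and 0.869). Calr passed as lower after quantile normalization and with equal 90th percentiles. Erap1, on chromosome 13 and also named with its values known, read lower without overlap (difference -0.26) but missed the threshold (adjusted p = 0.0717). It passed as lower in some alternatives, among them without Trib1 hi 3 (adjusted p over alternatives from 0.0128 to 0.481).

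Of 10 tested factors that induce immunoproteasome genes, 0 rose and 6 fell, with a median difference of -0.66, beside the same 31.1%. Nlrc5, the activator of MHC class I genes, read 14.4, 26, 496 and 239 against 1532, 1524, 1539 and 1617, at least 3.11-fold lower (adjusted p = 8.56e-07, 0.0410 or smaller in every alternative run). Irf2 was at least 1.48-fold lower (adjusted p = 0.000143). Ifngr1, the ligand-binding chain of the interferon gamma receptor, read 5038, 4987, 3984 and 5057 against 7213, 8088, 8060.1 and 7394, 1.62-fold lower (adjusted p = 1.35e-06). Ifngr2 (1.54-fold), Irf1 (1.42-fold) and Jak1 (1.31-fold), picked with their values known, also fell, and each lost its call with averaged probe sets and without a mean-variance trend. For Irf1 averaging left the difference unchanged at -0.51 (limma adjusted p = 0.0572). None of the 6 lower factors is on chromosome 17, but Nlrc5 and Irf2 are on chromosome 8, as is Psmb10. Psmd7, which was higher, Psme3ip1, which was lower, and Calr, which did not pass, are also on chromosome 8. No share of lower genes was counted for chromosome 8, and its part in these falls was not tested. Of 12 tested interferon-stimulated genes 0 rose and 6 fell, beside 11.1% higher and 19.7% lower among all genes tested. However, 2 of the 16 on the table read over 500 on average. Ifih1, an RNA sensor picked with its values known, was at least 2.41-fold lower (adjusted p = 1.86e-08). Rsad2, Dhx58 and Gbp2, all below 500 on every array, passed at adjusted p = 0.00989, 0.0111 and 0.0152 and did not with a floor of 500 or without Trib1 null 3 or Trib1 null 4.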

How the data were processed

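Total RNA of 8 samples was hybridised to Affymetrix arrays. The authors deposited 1 linear intensity per probe set and array, made with MAS5 per the submitters' processing notes; its version and parameters and the genome build are not stated there. The 2% trimmed mean of the deposited values was 500.1 to 500.2 on every array, so a change in total RNA cannot be seen. Groups and replicate numbers came from the titles.

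Of 45141 probe sets, 28898 had 1 symbol in the platform annotation. Values were analysed as log2(intensity + 2.71), the 25th percentile of all values being the pseudocount, and genes with a mean over 3.01, the 40th percentile of probe sets, were tested. The pseudocount pulls differences of dim genes toward 0, but less than a larger one or a floor does. Nlrc5 differed by -4.15 here, by -3.26 with a pseudocount of 50 and by -1.63 with a floor of 500. Differences of dim genes therefore depend on this choice. limma 3.58.1 in R 4.3.3 (lmFit, eBayes with trend, two-sided, Benjamini-Hochberg over 12250 genes) was tested on simulated data, where it missed some of the larger differences put in and most of the smaller ones; the recovery required of it was lowered after a first failure. A gene that did not pass may therefore have changed. Folds are given where all arrays read 500 or more. The members, lists and tests were chosen with earlier results of these data known. Per-array values are given for induced genes, their counterparts, and the 6 largest increases and decreases past the threshold; lists name up to 3 genes past it. Alternatives changed the pseudocount, filter, scaling, floor, probe set choice, variance trend, block or arrays used. Chromosomes and promoters came from RefSeq tables of GRCm38.p6. Precision is limited by having 4 arrays per group.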

Additional observations from a re-analysis of the deposited data

Results flagged for a closer look

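In 8 of 90 checks of a gene within a group of 4 arrays, the highest or the lowest array stood apart from the other 3 by more than the 95% critical value of Dixon's test, as a share of the group's range; chance flags about 1 in 20 groups. In the group labelled Trib1 hi, the array Trib1 hi 3 stood low for Psmb6 (0.927 of the range), Psma4 (0.887), Psmb8 (0.881), Psma6 (0.867) and Psmd6 (0.839). In the group labelled Trib1 null, the array Trib1 null 1 stood low for Psma5 (0.882) and Psmb9 (0.860), and Trib1 null 2 stood high for Psmd13 (0.885).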

How the results depend on the processing

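Of the 20 calls, all passed after quantile normalization and without Trib1 hi 3, and 1 changed direction in any alternative: Psmd4, with averaged probe sets, at -0.54. The count of higher members was 26 after quantile normalization and 9 without a mean-variance trend, and 12 to 29 without 1 array. In these settings 38.8%, 16.0% and 20.6% to 35.5% of genes over 500 were higher, so the background moved too. The count of lower members was 13 after quantile normalization, 3 with averaged probe sets and 2 without a trend, beside 39.7%, 19.9% and 20.4% of genes over 500. Lower induced members numbered 5 after quantile normalization. Genes of the pathway lists numbered 13 higher after quantile normalization and 3 with averaged probe sets. Lower list genes numbered 11 with a floor of 500 or without a trend and 9 with averaged probe sets. Without 1 array 4 to 10 were higher and 13 to 26 lower. Of genes over 500, 12.9% were higher with averaged probe sets and 27.8% lower with a floor of 500. The share lower was 27.9% to 36.5% without 1 array. The cause was not tested, except that averaging brings in probe sets near the bottom of the scale. It gave a difference of -0.79 for Psmb9 minus Psmb6 (exact permutation p = 0.143 adjusted over 3 pairs).

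Differences near 0 changed sign. After quantile normalization they were -0.014 for Psmd13, -0.079 for Psma5, -0.047 for Psma6 and -0.12 for Psmb2, and with averaged probe sets 0.33 for Psmd2 and -0.64 for Psmf1. Without 1 array they ran from -0.039 to 0.051 for Psmd13, -0.12 to 0.086 for Psma2, -0.040 to 0.14 for Psma5, -0.041 to 0.14 for Psma6, -0.030 to 0.12 for Psmb2, -0.038 to 0.070 for Psmf1 and -0.055 to 0.35 for Psmc3ip.

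Deviations of same-numbered arrays correlated with mixed sign (r = -0.51, 0.49, -0.29 and 0.37 across genes). These correlations cannot tell whether same-numbered arrays shared a culture or batch, and the labels give only the number. With a replicate block 14 members were higher and 4 lower, beside 22.8% and 30.1% of genes over 500. Paired by number, the differences of -0.72, -1.17 and -0.61 for Psmb8 minus Psmb5, Psmb9 minus Psmb6 and Psmb10 minus Psmb7 had an exact sign-flip permutation p of 0.125, the smallest that 4 pairs allow. Array Trib1 hi 3 correlated best with Trib1 null 1 (r = 0.65). Signals below 500 were given no fold.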
